A study of Mus musculus with 8 samples.

Results

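Hox genes encode homeodomain transcription factors that lie side by side in 4 clusters, Hoxa, Hoxb, Hoxc and Hoxd, and that give cells their position along the body and limb axes. Within a cluster, genes with low paralog numbers work in anterior body regions and genes with high numbers in posterior regions and distal limbs, and genes with the same number in different clusters are paralogs. Fibroblasts in culture are known to keep the Hox pattern of the site they came from. The set described here is every gene whose symbol is Hox, a cluster letter from a to d and a number, which gave 39 of the 50600 genes listed, with 11 in Hoxa, 10 in Hoxb, 9 in Hoxc and 9 in Hoxd.

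The RNA came from mouse embryonic fibroblasts of the C57BL/6 strain that had all been transduced with retroviruses for Gata4, Hand2, Mef2c and Tbx5, a factor set (GHMT) used to turn fibroblasts directly towards heart muscle cells. Cells were treated for 7 days with 1% DMSO, with 5 µM I-CBP112, with 5 µM C646 or with 0.1% ethanol, and each treatment has 2 libraries, 8 in all. I-CBP112 is a ligand of the CBP and p300 bromodomains, and C646 inhibits the catalytic activity of these histone acetyltransferases. The sources used here do not give the solvent of either inhibitor, the embryo region or the number of embryos or cultures, and no group without the retroviruses was analysed here. With nothing stating that the 2 libraries of a treatment came from separate cultures, p-values measure the spread between libraries, which may be technical.

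The deposited data are 3 tables of DESeq2 results from the authors, 1 for each treatment other than ethanol; ethanol is read here as their common reference because it has no table of its own. The tables hold the mean normalised count over all 8 libraries, a log2 fold change, its standard error (SE) and p-values, but no values of single libraries, so levels per treatment below are means rebuilt from those columns and no value per library can be shown. The 3 comparisons share the ethanol libraries and are therefore not independent of one another. Mean normalised counts add up to 37997801 over all genes, and the depth of single libraries is not in the tables. In these bulk samples, fewer cells of a type and less RNA per cell cannot be told apart.

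The label fibroblast was checked against 10 defining markers, among them Col1a1, Dcn and Pdgfra. All had counts, and their summed level was 643696 normalised counts in DMSO, 585387 under I-CBP112, 976686 under C646 and 986820 in ethanol. The authors' deposited tables call 8 of the 10 lower with DMSO than with ethanol at adjusted p below 0.05, 7 were lower with I-CBP112 and 0 differed with C646. Over all genes tested, 7.90% were lower and 8.07% higher with DMSO, and 5.25% were lower and 4.65% higher with I-CBP112. Summed over 10 cardiomyocyte markers, the level was 307838 in DMSO, 301562 under I-CBP112, 111390 under C646 and 110021 in ethanol, and the authors' deposited tables call 7 of them higher with DMSO and 10 with I-CBP112, but 0 with C646. The 4 retroviral factors, whose endogenous and viral transcripts are not separated in the tables, summed to 57181 in DMSO, 50016 under I-CBP112, 38599 under C646 and 38150 in ethanol, and the authors' deposited tables call 3 of the 4 higher with DMSO and 3 with I-CBP112, but 0 with C646. Of other cell types, the same tables call 0 of 7 tested macrophage markers lower with DMSO and 2 with I-CBP112, 1 of 2 endothelial and 1 of 1 epithelial markers lower in both, and 0 of 3 neuron and glia markers changed. Their sums were 3464 in DMSO, 2756 under I-CBP112, 3151 under C646 and 3359 in ethanol for macrophages, 578 in DMSO, 660 under I-CBP112, 1001 under C646 and 1008 in ethanol for endothelium, 39.7 in DMSO, 39.7 under I-CBP112, 116 under C646 and 118 in ethanol for epithelium, and 4157 in DMSO, 6770 under I-CBP112, 4915 under C646 and 4974 in ethanol for neurons and glia. No gene of these lists was at 0. The treatments in which single Hox genes differed from ethanol, below, were also those in which these marker sums differed, and the part of cell composition in the Hox values was not tested.

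All 39 Hox genes had counts, and 32 of them carry an adjusted p in each of the 3 tables. The other 7 had mean normalised counts of 24.1 or less, under the lowest level, 26.1, at which an adjusted p was given in every table: Hoxa4 15.5, Hoxb1 4.92, Hoxb8 15.5, Hoxb13 1.80, Hoxc12 13.9, Hoxd1 0.564 and Hoxd3 24.1. These 7 are left out of the counts below except where C646 is compared with ethanol, since that table gives an adjusted p to every gene with counts. Over the 32, the median mean count was 160, against 659 over the 14830 genes with an adjusted p in all 3 tables.

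Levels between genes were compared as mean normalised count per kilobase of exon (union of annotated exons). Hoxd8 stood highest at 422 per kilobase, followed by Hoxa10 at 353, Hoxd13 at 306, Hoxa13 at 269 and Hoxa11 at 259. Hoxb9 followed at 203, Hoxc6 at 201 and Hoxc8 at 141, and the other 31 Hox genes lay at or below 111. The lowest were Hoxb1 at 2.12, Hoxb13 at 0.818 and Hoxd1 at 0.303. Members of paralog groups 9 to 13, the posterior and distal end of the clusters, are 16 of the 39 genes and held 58.1% of the summed count per kilobase, and the 23 members of groups 1 to 8 held 41.9%. By cluster, Hoxa held 36.0% of the sum per kilobase, Hoxd 31.8%, Hoxc 18.4% and Hoxb 13.9%. Within Hoxa the highest levels lay in groups 10, 11 and 13, and within Hoxb in group 9. Such differences depend on the annotated exon length. Hoxa9 had a mean count of 529 over 5580 exon bases (94.8 per kilobase), and Hoxa11 had 591 over 2287. Hoxd had high levels at groups 8 and 13, on either side of lower ones, and Hoxc at groups 6 and 8. High and low expression thus stood next to each other in the same cluster, as for Hoxb9 and Hoxb8 (5.88 per kilobase). Neither of these genes shares exon bases with another annotated gene.

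**Figure D1:**
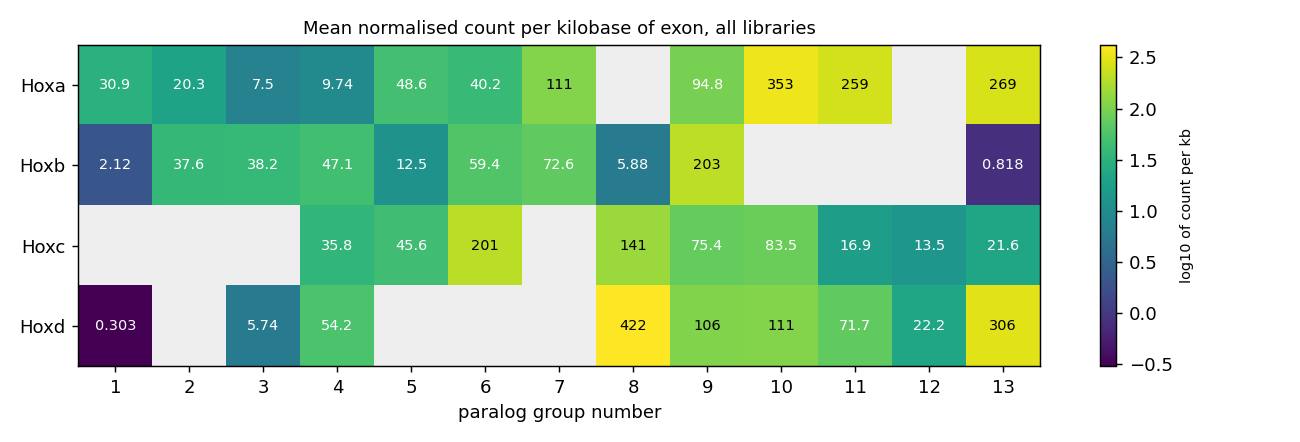
Mean normalised count per kilobase of exon over all 8 libraries for each of the 39 Hox genes, with the clusters as rows and paralog group numbers as columns. Colour is the log10 of the printed value, and grey cells are positions without a gene; Hoxd8 (422), Hoxa10 (353) and Hoxd13 (306) are the brightest cells and Hoxd1 (0.303) the darkest.

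The Hox genes together summed to 9396 normalised counts in DMSO, 8576 under I-CBP112, 9544 under C646 and 9374 in ethanol. That is 1.00 times the ethanol sum in DMSO, 0.915 times in I-CBP112 and 1.02 times in C646. The Hoxa sum was 3767 in DMSO, 2843 under I-CBP112, 3834 under C646 and 3754 in ethanol, so I-CBP112 stood at 0.757 times ethanol. Hoxb summed to 1315 in DMSO, 1401 under I-CBP112, 1125 under C646 and 1049 in ethanol. Both directions occurred under I-CBP112, with the Hoxa sum below ethanol and the Hoxb sum above it. Hoxc summed to 1502 in DMSO, 1392 under I-CBP112, 1666 under C646 and 1681 in ethanol, and Hoxd to 2812 in DMSO, 2940 under I-CBP112, 2919 under C646 and 2889 in ethanol. These sums are descriptions without a test and are dominated by their highest genes.

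**Figure D2:**
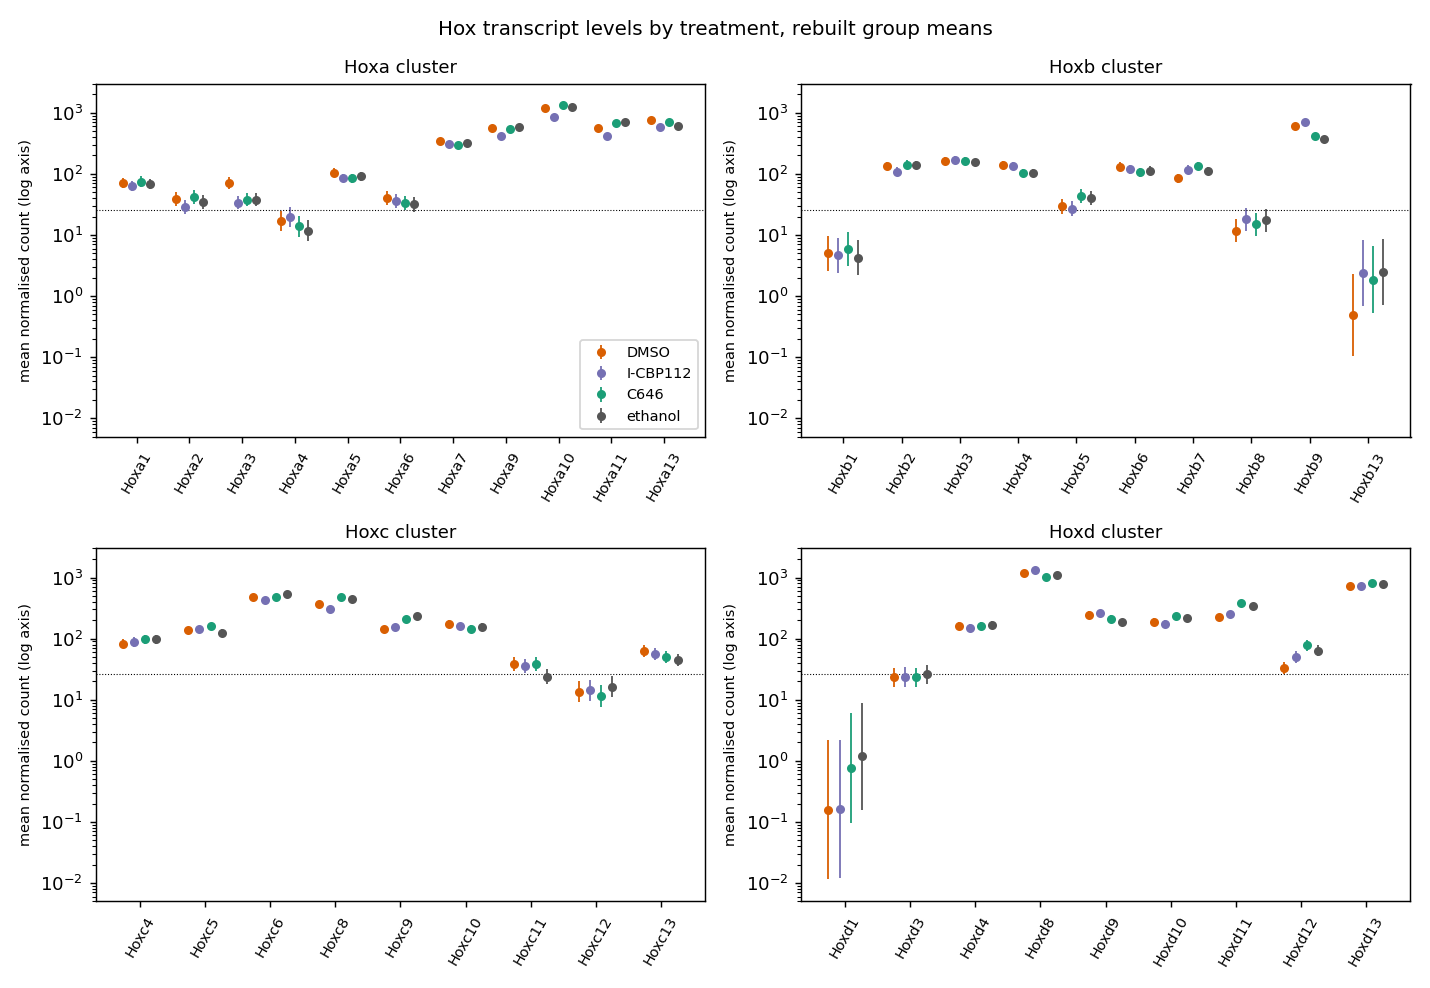
Rebuilt mean normalised count (log axis) of all 39 Hox genes in DMSO, I-CBP112, C646 and ethanol, in 1 panel per cluster; bars are 1 SE of the log2 mean, rebuilt from the deposited standard errors, and the dotted line marks a mean count of 26.1. Hoxb9 stands at 617 in DMSO and 698 in I-CBP112, above 409 in C646 and 366 in ethanol, while Hoxa10 (851) and Hoxa11 (417) are lowest in I-CBP112.

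The first question was what 1% DMSO did to the Hox genes relative to ethanol. Hoxb9, a posterior Hoxb gene of paralog group 9 with a role in thoracic and mammary patterning, was the single Hox gene that rose, and 0 fell, among the 32. Its rebuilt mean was 617 normalised counts in DMSO, against 366 in ethanol, and the authors' deposited table gives a log2 fold change of 0.75 ± 0.17 (SE, 2 libraries each) with a DESeq2 adjusted p of 0.000205. Hoxb9 (ENSMUSG00000020875.9) lies on the plus strand of chromosome 11, from 96271457 to 96276595 of GRCm38, and shares no exon bases with another annotated gene. The call count was 3.13% of the Hox genes, where 16.0% of all 14830 genes passed the same threshold in the authors' deposited table (8.07% up and 7.90% down).

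The lowest fold changes with DMSO were measured for Hoxc9, Hoxd11 and Hoxd12, all in the posterior range of paralog groups 9 to 13, and none of them passed the threshold. Hoxd12, a gene of digit and distal limb patterning, had a rebuilt mean of 33.5 in DMSO and 63.6 in ethanol, and the authors' deposited table gives -0.93 ± 0.44 (DESeq2 adjusted p = 0.158). Hoxd11, which acts with Hoxa11 in the forearm and kidney, had 224 in DMSO and 346 in ethanol, with -0.63 ± 0.24 (DESeq2 adjusted p = 0.0617) in the authors' deposited table. Hoxc9, chosen for mention after its values were seen because it lay closest to the threshold, had 142 in DMSO and 230 in ethanol, with -0.70 ± 0.27 (DESeq2 adjusted p = 0.0507) in the authors' deposited table. These last genes sit so near the threshold that small changes of scaling move them across it. Hoxc9 and Hoxd11 both came to an adjusted p below 0.05 when fold changes were centred on the median gene, and Hoxc9 also when groups were scaled to equal totals.

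The other genes among the highest of their cluster, and Hoxa11, did not pass the threshold in DMSO. Hoxd8 had 1197 normalised counts in DMSO and 1099 in ethanol, with 0.12 ± 0.15 in the authors' deposited table, and Hoxd13, which patterns the digits, had 735 in DMSO and 786 in ethanol, with -0.10 ± 0.18 there. Hoxa10 had 1184 in DMSO and 1261 in ethanol, and its 95% interval on the log2 scale was -0.36 to 0.17. Hoxa11 had 568 in DMSO and 696 in ethanol, with an interval of -0.61 to 0.03. Hoxa13 lay on the other side, with 762 in DMSO and 614 in ethanol and an interval of -0.05 to 0.68. Hoxc6 had 479 in DMSO and 540 in ethanol, Hoxc8 had 371 in DMSO and 448 in ethanol, and Hoxb3 had 162 in DMSO and 155 in ethanol, each with an interval that spanned 0. Over the 32 genes the deposited log2 fold changes ran from -0.93 (Hoxd12) to 0.90 (Hoxa3, which at 71.0 in DMSO and 38.0 in ethanol had an SE of 0.49), 17 above 0 and 15 below, in the authors' deposited table. Their median was 0.07, against 0.03 over all 14830 genes. The 95% interval excluded a change of 2-fold or more for 20 of the 32 (62.5%), against 71.9% of all genes. The Hox genes were thus measured less precisely than most genes, with a median SE of 0.28 against 0.18.

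The next question was what I-CBP112 did relative to ethanol, and here members moved in both directions. Hoxb9 rose, Hoxa10 and Hoxa11 fell, and the remaining 29 of the 32 did not pass the threshold. That is 9.38% of the Hox genes, where 9.90% of all genes passed in the authors' deposited table (4.65% up and 5.25% down), so the share called was near the background. Hoxb9 had a rebuilt mean of 698 in I-CBP112 and 366 in ethanol, and the authors' deposited table gives 0.93 ± 0.17 (DESeq2 adjusted p = 2.62e-06), a level 1.91 times that in ethanol. Hoxa10, a posterior gene needed for the thigh, the uterus and blood formation, had 851 in I-CBP112 and 1261 in ethanol, with -0.57 ± 0.14 (DESeq2 adjusted p = 0.000875) in the authors' deposited table. Hoxa11, which patterns the forearm, had 417 in I-CBP112 and 696 in ethanol, with -0.74 ± 0.17 (DESeq2 adjusted p = 0.000260) in the authors' deposited table. Levels in I-CBP112 were 0.675 times ethanol for Hoxa10 and 0.600 times for Hoxa11. All of these calls rest on the normal distribution that DESeq2 uses: read from a t distribution (4 degrees of freedom), 0 Hox genes were called in any comparison. Among all genes, that setting called 1 with DMSO and 0 with I-CBP112, so the loss was not particular to Hox genes.

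Hoxa10 and Hoxa11 are direct neighbours on the minus strand of chromosome 6, with annotated starts 4.96 kilobases apart. Hoxa10 (ENSMUSG00000000938.11) runs from 52231197 to 52240854 and Hoxa11 (ENSMUSG00000038210.10) from 52242106 to 52245810. Their promoters are shown because these adjacent genes fell together. The sequences are the 250 bases before the outermost annotated start of each gene, from RefSeq on GRCm38.p6, at chr6:52240855-52241104 for Hoxa10 and chr6:52245811-52246060 for Hoxa11, printed 5′ to 3′ on the minus strand with each CG dinucleotide in capitals.
Hoxa10: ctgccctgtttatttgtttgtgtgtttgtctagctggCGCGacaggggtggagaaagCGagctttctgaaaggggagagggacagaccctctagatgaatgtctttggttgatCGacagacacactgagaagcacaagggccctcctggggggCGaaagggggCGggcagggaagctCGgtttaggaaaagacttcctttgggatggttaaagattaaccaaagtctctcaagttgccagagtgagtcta
Hoxa11: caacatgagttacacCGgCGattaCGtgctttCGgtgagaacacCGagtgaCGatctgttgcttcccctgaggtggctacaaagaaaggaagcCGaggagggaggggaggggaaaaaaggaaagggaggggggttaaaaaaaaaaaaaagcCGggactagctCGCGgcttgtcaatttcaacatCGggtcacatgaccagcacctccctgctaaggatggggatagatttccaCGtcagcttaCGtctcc
The Hoxa10 stretch is 51.6% G or C and holds 7 CG dinucleotides, and the Hoxa11 stretch is 52.0% G or C and holds 13. Over the 32851 promoters of the RefSeq table, the medians were 52.4% and 6, and over 24 Hox promoters (22 Hox genes were matched) they were 58.6% and 12.5, so Hoxa10 was close to the median of all promoters in both and Hoxa11 close to the other Hox promoters in CG number. Both strands were searched for 4 motifs. The composite site of PBX and HOX proteins, spelled TGATNNAT, is in 7.68% of all promoters in the table, read over the same 250 bases, and in 4 of the 24 Hox promoters. The nuclear receptor half-site AGGTCA is in 14.0% of all and 6 of the 24. The GATA site AGATAA is in 9.99% of all and 0 of the 24, and the T-box half-site AGGTGT is in 11.8% of all and 3 of the 24. The 2 half-sites start with the same 4 letters but are not the same site. None of the 4 motifs was found in either stretch, which says only that these letters are not in these windows. The promoter list also holds a second Hoxa10 start, inside the gene, whose window (from 52234890) is not printed here. That window had 1 match to the T-box half-site and none to the other motifs. Whether any such site is used was not tested.

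Hoxa11 shares 800 exon bases, 35.0% of its exon length, with Hoxa11os, a noncoding gene on the opposite strand that runs from 52244393 to 52249799 of chromosome 6. Hoxa11os had a rebuilt mean of 292 in I-CBP112 and 481 in ethanol, and the authors' deposited table gives -0.72 ± 0.19 (DESeq2 adjusted p = 0.00245). The sources used here do not say whether reads were assigned by strand, so the decrease of Hoxa11 and that of Hoxa11os cannot be told apart with certainty. Hoxa10 shares no exon bases with another gene.

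The rest of Hoxa mostly lay on the same side without passing the test. Of its 10 genes with an adjusted p, 9 had a fold change below 0 with I-CBP112 in the authors' deposited table, where 47.7% of all genes did. Hoxa9, named after its values were seen as the cluster member nearest to the threshold, had 421 in I-CBP112 and 583 in ethanol, with -0.47 ± 0.18 (DESeq2 adjusted p = 0.0819) in the authors' deposited table. Hoxa13, the most posterior gene of the cluster and one of distal limb and genital patterning, had 576 in I-CBP112 and 614 in ethanol, with -0.09 ± 0.19 there. Adjacent Hoxa9, Hoxa10 and Hoxa11 thus had the lower values, while the interval of Hoxa13, -0.46 to 0.27, spanned 0.

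In Hoxc, the highest genes stood lower with I-CBP112, again without passing. Hoxc8, which patterns the lower thorax, had 311 in I-CBP112 and 448 in ethanol, and the authors' deposited table gives -0.53 ± 0.21 (DESeq2 adjusted p = 0.101). Hoxc6 had 432 in I-CBP112 and 540 in ethanol, with -0.32 ± 0.19 (DESeq2 adjusted p = 0.386) in the authors' deposited table. In Hoxd, the highest gene stood slightly higher: Hoxd8 had 1307 in I-CBP112 and 1099 in ethanol, with 0.25 ± 0.15 (DESeq2 adjusted p = 0.389) there. Hoxd13 had 718 in I-CBP112 and 786 in ethanol, with -0.13 ± 0.18 in the authors' deposited table. Hoxd11 had 254 in I-CBP112 and 346 in ethanol, and Hoxd12 had 50.1 in I-CBP112 and 63.6 in ethanol, both lower than in ethanol without passing. Hoxb3, the second highest Hoxb gene by mean count, had 170 in I-CBP112 and 155 in ethanol, with 0.14 ± 0.27 there. For these 32 genes the authors' deposited table has 12 fold changes above 0 and 20 below, a range from -0.74 (Hoxa11) to 0.93 (Hoxb9) and a median of -0.12, against 0.01 over all genes.

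**Figure D3:**
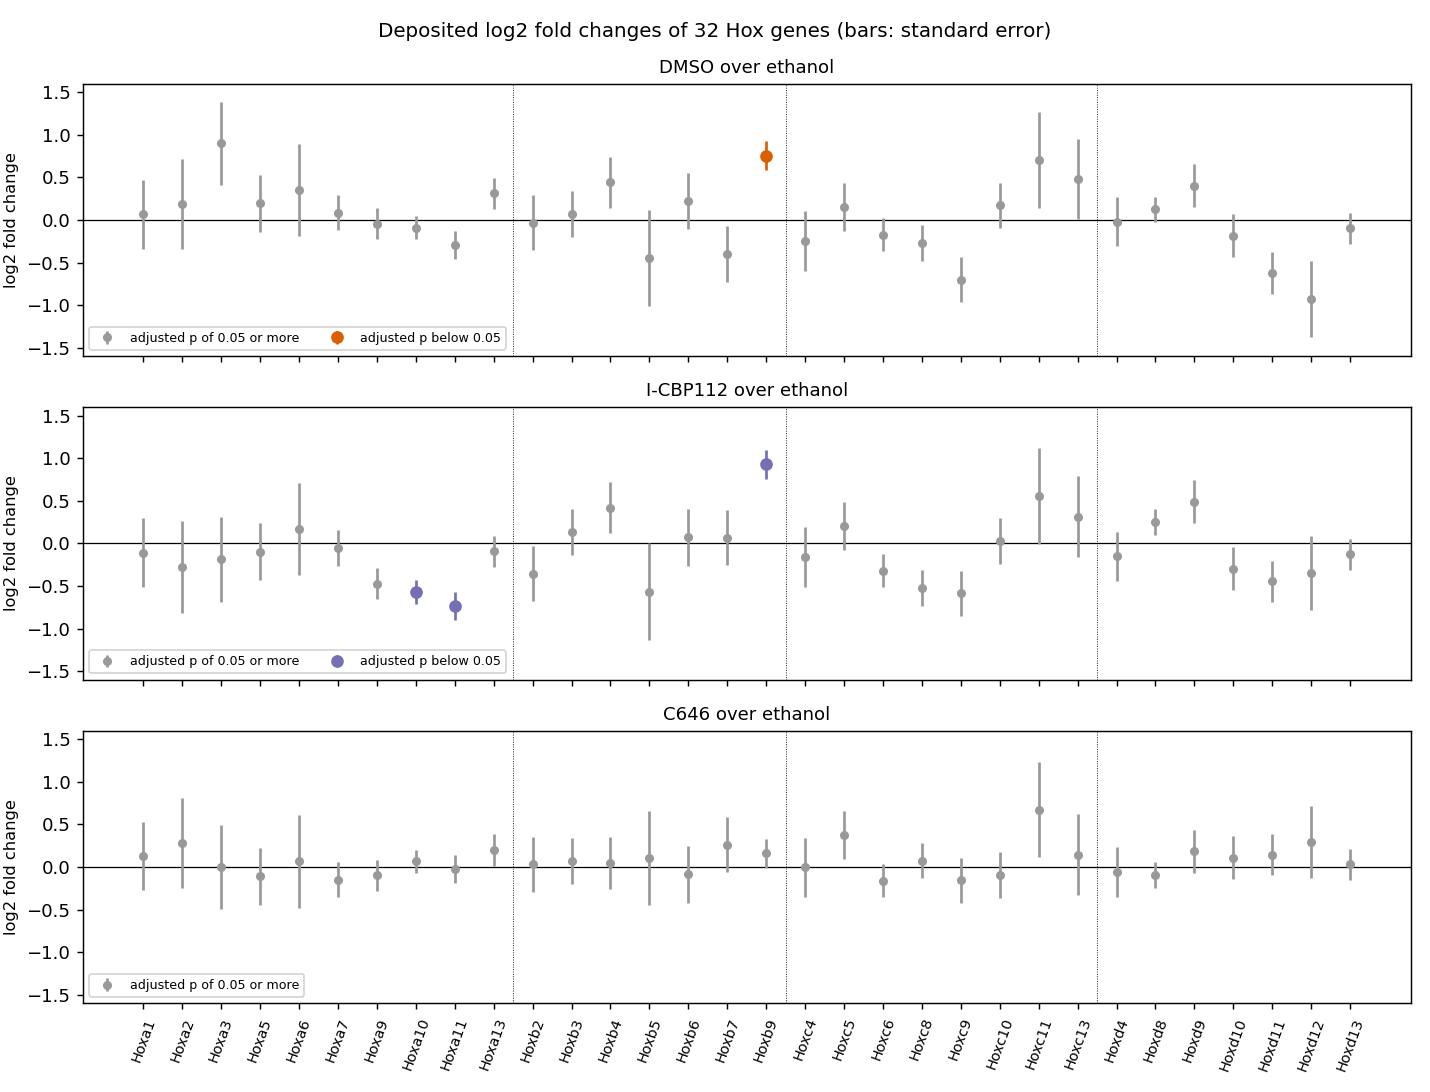
Deposited log2 fold change over ethanol of the 32 Hox genes with an adjusted p in all 3 tables, in cluster order, with DMSO, I-CBP112 and C646 in separate panels; bars are the deposited SE, larger coloured points have an adjusted p below 0.05 and dotted lines part the clusters. Hoxb9 is coloured in the DMSO (0.75) and I-CBP112 (0.93) panels, Hoxa10 (-0.57) and Hoxa11 (-0.74) in the I-CBP112 panel, and no gene in the C646 panel.

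With C646, 0 of 39 Hox genes passed the authors' DESeq2 test against ethanol. In the authors' deposited table, 0.00584% of the 34250 genes with an adjusted p there passed (0.00292% up and 0.00292% down). At an unadjusted p below 0.05 there were 0 of the 39 Hox genes, while 0.748% of the 14830 genes were below it in the authors' deposited table. That share is itself smaller than the threshold would give if no gene differed. The 0 of 39 therefore says little about Hox genes in particular. The lowest unadjusted p among the 39 was 0.182, for Hoxc5, in that table. Hoxb9 had 409 in C646 and 366 in ethanol, with 0.16 ± 0.17 in the authors' deposited table and a 95% interval of -0.18 to 0.50. Hoxa10 had 1320 in C646 and 1261 in ethanol, and Hoxa11 had 685 in C646 and 696 in ethanol, with 95% intervals of -0.20 to 0.33 for Hoxa10 and -0.34 to 0.30 for Hoxa11. For these 3 genes a change of 2-fold or more lies outside the interval. The same was so for 26 of the 32 genes (81.3%), against 83.5% of all genes. Among the 32, fold changes ran from -0.16 (Hoxc6) to 0.67 (Hoxc11, SE 0.56) in the authors' deposited table, and their median was 0.07, against 0.00 over all genes. Hoxc11 had 38.2 in C646 and 24.0 in ethanol, and its mean count of 34.1 was the lowest of the 32.

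No Hox gene among the 32 differed from ethanol by 2-fold or more in any of the 3 authors' deposited tables, while 6.21% of all genes did in the DMSO table, 4.18% in the I-CBP112 table and 0.364% in the C646 table.

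The treatments were also set against each other, by the difference of their log2 fold changes and an SE rebuilt from the deposited ones, with a two-sided normal p adjusted by Benjamini-Hochberg over 14830 genes. Over the 3 pairs, 6 genes passed in at least 1: Hoxb9, Hoxa10, Hoxa11, Hoxc8, Hoxd11 and Hoxd12. Between I-CBP112 and DMSO, 1 Hox gene was lower and 0 higher, 3.13% of the 32, where 6.97% of all genes passed (4.31% up and 2.66% down). That gene was Hoxa10, with 851 in I-CBP112 and 1184 in DMSO, a difference of -0.48 ± 0.14 (Benjamini-Hochberg adjusted p = 0.0125), and the call was lost with the upper bound of the SE. Among all genes, that bound called 237, against 1034 with the rebuilt SE. Hoxa11 had 417 in I-CBP112 and 568 in DMSO, a difference of -0.44 ± 0.17 (Benjamini-Hochberg adjusted p = 0.0863). Hoxb9 had 698 in I-CBP112 and 617 in DMSO, and the interval of the difference, -0.15 to 0.51, held both no change and a moderate increase. All 10 Hoxa genes tested lay below 0 in this pair, as did 54.6% of all genes, with a median of -0.42, and the other 9 did not pass. Set beside the other clusters, the medians of this pair were -0.02 for Hoxb, -0.14 for Hoxc and 0.09 for Hoxd.

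The 2 inhibitors were used at the same 5 µM and for the same 7 days. Between I-CBP112 and C646, 1 Hox gene was higher and 3 were lower, 12.5% of the 32, where 9.80% of all genes passed (4.69% up and 5.11% down). Hoxb9 had 698 in I-CBP112 and 409 in C646, a difference of 0.77 ± 0.17 (Benjamini-Hochberg adjusted p = 0.000171). Hoxa10 had 851 in I-CBP112 and 1320 in C646, a difference of -0.63 ± 0.14 (Benjamini-Hochberg adjusted p = 0.000130). Hoxa11 had 417 in I-CBP112 and 685 in C646, a difference of -0.71 ± 0.17 (Benjamini-Hochberg adjusted p = 0.000443). The 3 genes called against ethanol under I-CBP112 were thus also called against C646, in the same direction, and the I-CBP112 libraries are common to both comparisons. Hoxc8 was added, with 311 in I-CBP112 and 472 in C646, a difference of -0.60 ± 0.21 (Benjamini-Hochberg adjusted p = 0.0449). Hoxc8 and Hoxa11 did not pass when the upper bound of the SE was used, and Hoxc8 also did not when p was adjusted over every gene with a p. Among all genes, the upper bound called 501, against 1454 with the rebuilt SE.

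Between C646 and DMSO, 2 Hox genes were higher and 1 was lower, 9.38% of the 32, where 15.8% of all genes passed (7.98% up and 7.86% down). Hoxb9 was lower, with 409 in C646 and 617 in DMSO, a difference of -0.59 ± 0.17 (Benjamini-Hochberg adjusted p = 0.00555). Hoxd11 (ENSMUSG00000042499.13, chromosome 2, 74679557 to 74687016) had 383 in C646 and 224 in DMSO, a difference of 0.77 ± 0.24 (Benjamini-Hochberg adjusted p = 0.0139). Its neighbour Hoxd12 (ENSMUSG00000001823.5, chromosome 2, 74675013 to 74677705) had 78.1 in C646 and 33.5 in DMSO, a difference of 1.22 ± 0.44 (Benjamini-Hochberg adjusted p = 0.0387). Both Hoxd genes are posterior members of their cluster, and Hoxd13 beyond them had 802 in C646 and 735 in DMSO, with an interval of -0.23 to 0.49. Hoxd11 shares 455 exon bases with Gm28309 on the same strand, and Hoxd12 shares none with any gene. All 3 calls of this pair were lost with the upper bound of the SE, and that of Hoxd12 also when p was adjusted over every gene with a p. Among all genes, the upper bound called 839, against 2349 with the rebuilt SE.

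**Figure D4:**
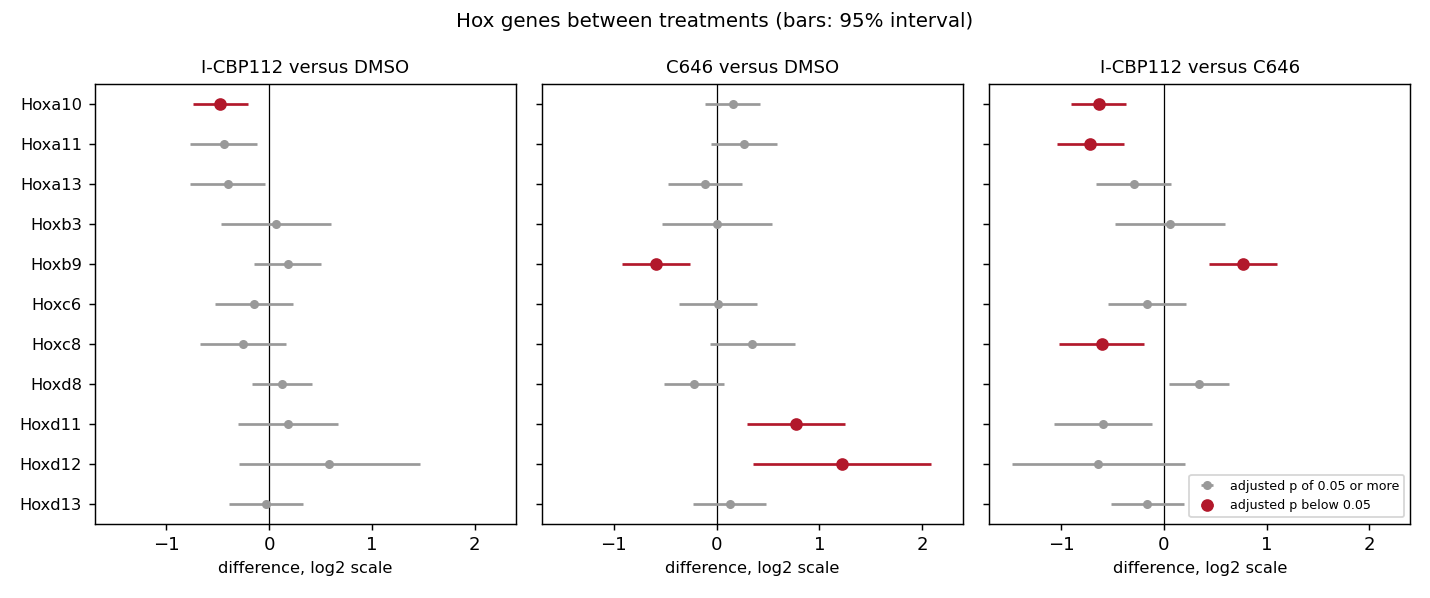
Differences between treatments on the log2 scale, with 95% intervals, for the 11 Hox genes called in any comparison or among the 2 highest of their cluster; red points have a Benjamini-Hochberg adjusted p below 0.05. Hoxa10 lies left of 0 in both I-CBP112 panels (-0.48 against DMSO, -0.63 against C646), and Hoxd12 has the widest called interval (0.36 to 2.09, C646 against DMSO).

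In paralog group 9, Hoxb9 rose with I-CBP112 and the other 3 members did not pass. Hoxc9, the member with the lowest fold change, had 154 in I-CBP112 and 230 in ethanol, with -0.58 ± 0.26 (DESeq2 adjusted p = 0.172) in the authors' deposited table. Across the 32 genes, paralog number and fold change had a Pearson r of -0.16 and a Spearman rho of -0.13 for DMSO, 0.00 and -0.03 for I-CBP112, and 0.17 and 0.17 for C646. These are descriptions across genes, which share libraries and are not independent replicates.

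The clusters also hold noncoding and antisense genes, some of which are known to act on neighbouring Hox genes. Of 16 such genes in the list used, 14 had counts and 5 had an adjusted p in all 3 tables. Hoxa11os, described above, fell with I-CBP112, and 0 of the 5 passed with DMSO or C646 in the authors' deposited tables. Beside this, 16.0% of all genes passed with DMSO and 9.90% with I-CBP112. Hotairm1, at the anterior end of Hoxa, had 95.8 in DMSO, 77.0 under I-CBP112, 97.5 under C646 and 99.3 in ethanol. Hottip, at the posterior end of Hoxa, and Hotair, within Hoxc, had mean counts of 25.6 and 4.91 and no adjusted p in the DMSO and I-CBP112 tables. Halr1 and Mir196b were listed at 0. Exon bases are shared with another annotated gene by 16 of the 39 Hox genes, with a gene on the same strand for 9 and on the opposite strand for 10. Hoxb3 shares 52.9% of its exon length with the opposite-strand Hoxb3os. Hoxd3 shares 53.1% and Hoxd4 39.1% with Gm28230 on their own strand, so the levels of these 3 Hox genes are less certain.

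Polycomb complexes keep Hox genes silent, and trithorax or MLL complexes keep them active. As background for the counts below, 16.0% of all genes passed with DMSO (8.07% up and 7.90% down). With I-CBP112 it was 9.90% (4.65% up and 5.25% down). Of 31 Polycomb genes tested, 3 rose and 0 fell with DMSO, 2 rose and 0 fell with I-CBP112 and 0 passed with C646 in the authors' deposited tables. With DMSO these were Phf19, Ezh1 and Rybp, with log2 fold changes of 2.04 ± 0.70, 0.46 ± 0.13 and 0.44 ± 0.14 in the authors' deposited table. Phf19 had low counts, with 58.3 in DMSO, 16.7 under I-CBP112, 46.1 under C646 and 14.2 in ethanol, so its fold change is uncertain. With I-CBP112 the genes that rose were Pcgf5, of the PRC1 complex, at 0.64 ± 0.15 and Suz12, a core subunit of PRC2, at 0.51 ± 0.16 in the authors' deposited table. Suz12 had 1085 in I-CBP112 and 762 in ethanol. Of 21 trithorax and MLL genes tested, 3 rose and 1 fell with DMSO, 1 rose with I-CBP112 and 0 passed with C646 in the authors' deposited tables. Mllt3, a reader of acylated histones in the super elongation complex, passed with both treatments, at 1247 in DMSO, 1067 under I-CBP112, 590 under C646 and 514 in ethanol, with 1.28 ± 0.22 for DMSO (DESeq2 adjusted p = 2.22e-07) in the authors' deposited table. Kdm6b, which removes the Polycomb methyl mark, fell with DMSO, with 244 in DMSO and 405 in ethanol, at -0.73 ± 0.25 (DESeq2 adjusted p = 0.0267) in the authors' deposited table.

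Retinoic acid is a known inducer of Hox genes, anterior ones first. Of 14 genes of this pathway tested, 2 rose and 7 fell with DMSO, 1 rose and 4 fell with I-CBP112 and 0 passed with C646 in the authors' deposited tables. The shares over all genes, in either direction, were 16.0% with DMSO and 9.90% with I-CBP112. Crabp1, a retinoic acid binding protein, had 116 in DMSO, 222 under I-CBP112, 480 under C646 and 466 in ethanol, and fell in the authors' deposited tables by 2.01 with DMSO (SE 0.23, DESeq2 adjusted p = 4.30e-16) and by 1.07 with I-CBP112 (SE 0.22, DESeq2 adjusted p = 4.57e-05). Rarb, a receptor that is itself a retinoic acid target, had 350 in DMSO, 261 under I-CBP112, 129 under C646 and 134 in ethanol, and rose in both the DMSO and the I-CBP112 comparison of the authors' deposited tables. Cyp26b1, which degrades retinoic acid, had 59.7 in DMSO and 156 in ethanol, at -1.39 ± 0.32 (DESeq2 adjusted p = 0.000239) in the authors' deposited table. Aldh1a2, which makes retinoic acid, had 56.2 in I-CBP112 and 117 in ethanol, at -1.06 ± 0.36 (DESeq2 adjusted p = 0.0405) in the authors' deposited table. Rarb thus stood higher where Crabp1 stood lower. The pathway's median log2 fold change was -0.60 for DMSO, -0.42 for I-CBP112 and -0.04 for C646, beside Hox medians of 0.07, -0.12 and 0.07.

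Homeobox genes outside the 4 clusters were read beside the Hox genes. Evx2, which borders Hoxd, had 35.4 in DMSO, 36.5 under I-CBP112, 75.2 under C646 and 87.5 in ethanol, and fell with DMSO (-1.31 ± 0.46, DESeq2 adjusted p = 0.0310) in the authors' deposited table. It was the single gene of 8 in the ParaHox, Evx and Cdx list with an adjusted p in all 3 tables, and Cdx2, Cdx4, Gsx1 and Gsx2 were listed at 0. Of 23 other homeobox genes of mesenchyme tested, 0 rose and 3 fell with DMSO, 0 rose and 4 fell with I-CBP112 and 0 passed with C646 in the authors' deposited tables. Among all genes, 16.0% passed in either direction with DMSO and 9.90% with I-CBP112. Prrx1, a gene of limb bud mesenchyme, had 6468 in DMSO, 5653 under I-CBP112, 8830 under C646 and 8657 in ethanol and was among the genes that fell with DMSO and with I-CBP112. Meox1, a somite homeobox gene, had 29.1 in DMSO, 22.6 under I-CBP112, 85.5 under C646 and 97.9 in ethanol and also fell with both. Msx1 had 542 in I-CBP112 and 851 in ethanol, at -0.65 ± 0.16 (DESeq2 adjusted p = 0.00122) in the authors' deposited table.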

How the data were processed

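RNA from 8 libraries, 2 for each of DMSO, I-CBP112, C646 and ethanol, was sequenced with TruSeq libraries from total RNA, per the labels' protocols. Reads were quantified with kallisto 0.43.1 on GRCm38.p5 and genes were tested with DESeq2 (version not given in the sources used here), per the submitters' processing notes. The authors deposited, for each of 50600 genes, a signal (the mean normalised count over all libraries), a log2 fold change with its standard error, a score (the Wald statistic) and a p-value with its Benjamini-Hochberg adjustment. A gene counts as called against ethanol where the adjusted p of the authors is below 0.05; no such test was rerun. Library totals and values of single libraries were not used here, as the tables hold none; precision is given by the deposited standard errors.

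Group means were rebuilt from the mean count and the 3 fold changes. For pairs of treatments, the SE was rebuilt assuming a single dispersion for each gene; applied to the deposited values themselves, this came within 1% for 97.6% of genes for DMSO, 97.8% for I-CBP112 and 97.6% for C646. Intervals are 95% normal intervals. Exon lengths and gene coordinates are those of GENCODE M21, where all 39 Hox identifiers and 50376 of the 50600 were found. Promoters come from RefSeq (GRCm38.p6). Python 3.11.15, pandas 2.3.3, numpy 2.4.6 and scipy 1.17.1 were used, and the code was tested on simulated data.

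The Hox genes named are those called in any comparison and the 2 of each cluster with the highest mean count; of other lists, at most the 3 called genes with the largest fold change per comparison, with exceptions marked or given as levels only. The members and lists were chosen with earlier results of these data known. Alternatives covered the genes over which p was adjusted, scaling, the reference distribution, low counts, the threshold and the SE between treatments.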

Additional observations from a re-analysis of the deposited data

How the results depend on the processing

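When p-values were read from a t distribution (4 degrees of freedom), 0 Hox genes were called in each of the 6 comparisons, where DMSO against ethanol had 1, I-CBP112 against ethanol 3, I-CBP112 against DMSO 1, C646 against DMSO 3 and I-CBP112 against C646 4; over all 14830 genes this setting called 1 gene with DMSO and 0 in the other comparisons. For DMSO against ethanol, the 1 call became 2 (1 up and 1 down, adding Hoxc9) when groups were scaled to equal totals or when genes with a mean count of 100 or more alone were kept, and 3 (1 up and 2 down, adding Hoxd11 at -0.66, adjusted p = 0.0465) when centred on the median gene. With the upper bound of the SE, 0 calls were left for I-CBP112 against DMSO, 0 for C646 against DMSO and 2 (Hoxb9 up and Hoxa10 down) for I-CBP112 against C646. Among all genes, that bound called 237 for I-CBP112 against DMSO, 839 for C646 against DMSO and 501 for I-CBP112 against C646. With the rebuilt SE these were 1034, 2349 and 1454. At an adjusted p below 0.01, I-CBP112 against DMSO had 0 and C646 against DMSO had 1 (Hoxb9, down). The other 26 settings of these counts stayed within 1.5 times, though adjusting p over every gene with a p ended the calls of Hoxd12 (C646 against DMSO, 2 left) and Hoxc8 (I-CBP112 against C646, 3 left), and an adjusted p below 0.01 also ended that of Hoxc8. Of 66 fold changes (11 Hox genes against ethanol, under 2 scalings), 65 kept direction and call, Hoxd11 being the exception among these. The median with DMSO, 0.07, was -0.03 over members with a mean count of 100 or more and -0.02 over every member, so its sign is not settled. No paired analysis was possible because the tables hold no values of single libraries, and leaving out libraries was not run for the same reason. Low counts limit 7 Hox genes, and 2 libraries per group limit all of them.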
